A study of Rattus norvegicus with 24 samples.

Results

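The miR-26 and miR-101 families were followed in rat lung after inhalation of hexanal. They are represented by 4 mature miRNAs, rno-miR-26a-5p, rno-miR-26b-5p, rno-miR-101a-3p and rno-miR-101b-3p, which were picked by name from the 719 rat miRNAs on the array. All 4 were among the 283 miRNAs that entered the tests. RNA was extracted from the lungs of 24 Fischer-344 rats, an inbred laboratory strain, that were 7 to 8 weeks old when the experiment began. Control rats breathed filtered clean air, and the other rats breathed hexanal at 600, 1000 or 1500 ppm for 4 h per day on 5 days per week over 5 weeks per the labels. The methods of the study give a shorter duration, and which is right was not settled here. Each of the 4 groups held 6 rats, 3 males and 3 females, with 1 single-colour Agilent array per rat. The titles use ppm where the protocol text has milligrams per cubic metre for identical numbers, so the ppm values serve here as names of the groups.

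Hexanal is a straight-chain aldehyde that forms when unsaturated fatty acids are oxidised. A mature miRNA guides the silencing machinery to messenger RNAs, chiefly through its seed, the stretch of bases just after its first base, so miRNAs with the same seed form a family and share most predicted targets. Members of both families are known to repress EZH2, the methyltransferase of Polycomb repressive complex 2 that writes a silencing mark on histone H3, and both families are often low in tumours, including tumours of the lung. miR-26 genes lie inside genes of small CTD phosphatases and are made together with them.

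The mature sequences are shown first because the members of a family are close enough that a hybridisation probe may read both. They were taken from RefSeq for the assembly GRCr8, which matched all 4 members, and are written 5′ to 3′ with the seed, bases 2 to 8, in capitals.
rno-miR-26a-5p: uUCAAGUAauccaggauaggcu
rno-miR-26b-5p: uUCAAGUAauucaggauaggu
rno-miR-101a-3p: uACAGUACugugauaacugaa
rno-miR-101b-3p: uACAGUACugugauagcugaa
rno-miR-144-3p: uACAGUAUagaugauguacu
The miR-26 members shared the seed UCAAGUA and differed by 2 substitutions over 21 shared bases, C11U and C21U, counted from 1 at the 5′ end of miR-26a-5p, which was 1 base longer at its 3′ end. The miR-101 members shared the seed ACAGUAC and differed by 1 substitution, A16G, counted from the 5′ end of miR-101a-3p. No other rat miRNA of the RefSeq table carried either seed. miR-144-3p, a miRNA of the red blood cell lineage, was added because its first 7 bases are those of miR-101a-3p and its seed differs by C8U.

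In GRCr8 the mature miR-26a-5p lies at chr8:127633063-127633084 on the plus strand within Ctdspl, and miR-26b-5p at chr9:83425723-83425743 on the plus strand within Ctdsp1. miR-101a-3p lies at chr5:121081691-121081711 on the minus strand, outside the span of the protein-coding genes in the table. miR-101b-3p lies at chr1:236273982-236274002 on the plus strand within Rcl1. The hairpins of the miR-101 pair, of 75 and 97 bases, are printed with the measured arm in capitals. Their likeness outside that arm was not measured.
Mir101a: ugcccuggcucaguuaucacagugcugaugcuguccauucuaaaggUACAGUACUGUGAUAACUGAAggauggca
Mir101-2: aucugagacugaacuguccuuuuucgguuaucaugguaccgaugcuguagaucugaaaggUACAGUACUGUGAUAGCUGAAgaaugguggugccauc

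Levels are log2 values of the processed spot intensity after each array was scaled to a common 75th percentile. Between 221 and 306 miRNAs were above background on an array, and each array correlated with the others at a median r of 0.985 to 0.992. The arrays lay on 3 slides of 8, and the slides were not balanced over the groups. Slide 1 held males alone, all those of the control and 600 ppm groups and 2 of the 1000 ppm group. On slide 2 were the 4 other males, of which 3 had breathed 1500 ppm and 1 had breathed 1000 ppm, together with all control females and a single 600 ppm female. The 8 remaining females made up slide 3. Within a sex, control and 1500 ppm arrays never shared a slide. Before scaling, that percentile averaged 1068 ± 178 scanner units over the 8 arrays of slide 1 (SD), 722 ± 42.3 over those of slide 2 and 858 ± 94.8 over those of slide 3. The lung label was met by the markers: the endothelial miR-126a arms, 5 epithelial miRNAs of the miR-200 family and the ciliated cell miRNAs miR-34b, miR-34c and miR-449a were above background on all 24 arrays, while brain miR-124-3p and pancreatic miR-217-5p were above it on 0. Markers of other tissues were not all absent. Striated muscle miR-133b-3p was above background on 24 arrays, miR-133a-3p on 21, miR-1-3p on 18 and miR-206-3p on 0, liver miR-122-5p on 21 and pancreatic miR-216a-5p on 4.

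Each member was read by 2 probes with 17 to 20 usable spots per array between them. Every one of these probes was above background on all 24 arrays, and 0 of their spots were saturated. The median spot brightness relative to the local background, as a median over arrays, was 388 and 536 for the probes of miR-26a-5p, 95.4 and 116 for miR-26b-5p, 23.2 and 25.7 for miR-101a-3p, and 7.95 and 12.6 for miR-101b-3p. These ratios describe how well each probe was measured, and brightness of different probes does not rank the amounts of their miRNAs.

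miR-26a-5p had a lowest, median and highest log2 level of 13.73, 13.80 and 13.83 in control rats, 13.66, 13.83 and 13.99 at 600 ppm, 13.71, 13.84 and 13.99 at 1000 ppm, and 13.76, 13.93 and 13.96 at 1500 ppm. The control rats lay close together, and the exposed groups reached above them while overlapping them. miR-26b-5p had 11.59, 11.78 and 11.89 in control rats, 11.55, 11.78 and 11.97 at 600 ppm, 11.58, 11.65 and 12.05 at 1000 ppm, and 11.54, 11.64 and 11.86 at 1500 ppm. Its 4 groups covered nearly the same range.

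miR-101a-3p was split within the control group. Its 3 control males were at 9.96, 10.03 and 9.94 and the 3 control females at 9.34, 9.41 and 9.43 on the log2 scale. At 600 ppm the males were at 9.89, 9.84 and 9.78 and the females at 9.47, 9.63 and 9.68. At 1000 ppm the males were at 9.92, 9.89 and 9.41 and the females at 9.47, 9.55 and 9.68. The 1000 ppm male at 9.41 was the only one of its group on slide 2, and the other two lay on slide 1. At 1500 ppm the males, all on slide 2, were at 9.46, 9.53 and 9.44 and the females at 9.40, 9.72 and 9.53.

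miR-101b-3p showed the same split. The control males were at 8.41, 8.45 and 8.34 and the control females at 8.06, 8.10 and 8.05. The 600 ppm males were at 8.20, 8.34 and 8.32 and the females at 8.08, 8.25 and 8.32. The 1000 ppm males were at 8.32, 8.39 and 8.10, with the slide 2 male again lowest, and the females at 8.14, 8.15 and 8.36. The 1500 ppm males were at 8.12, 8.10 and 8.12 and the females at 8.07, 8.36 and 8.19.

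**Figure D1:**
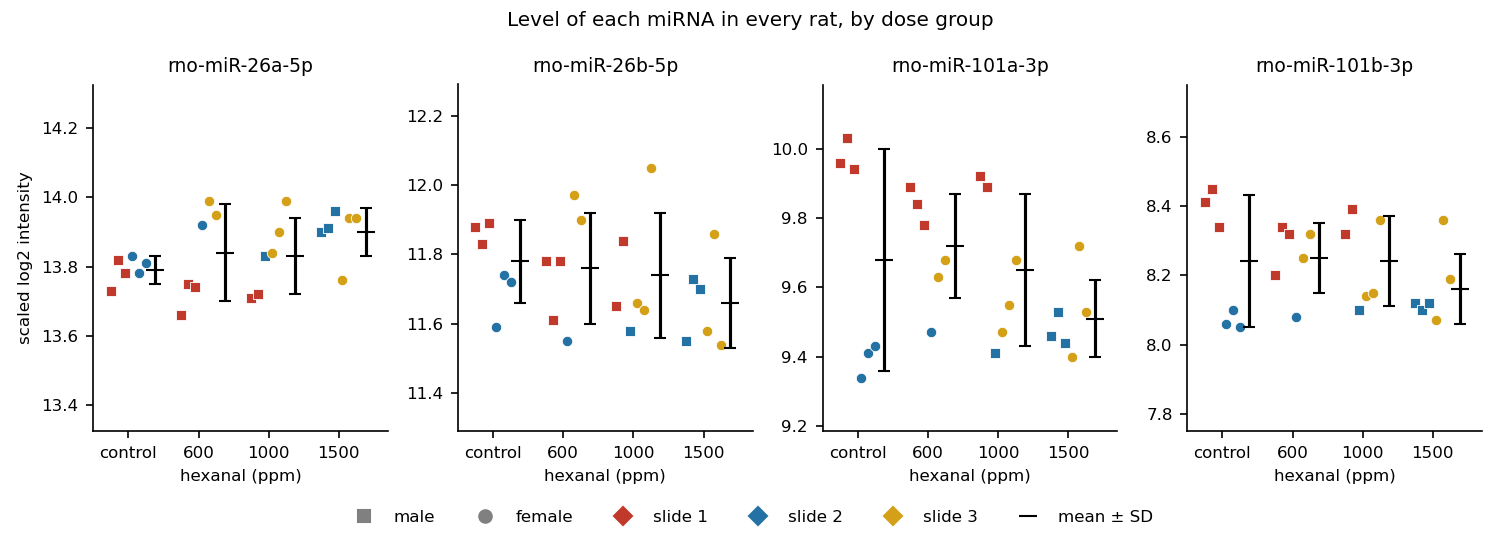
Scaled log2 intensity of each of the 4 miRNAs (y axis, each panel spanning 1 log2 unit) in every rat of the control, 600, 1000 and 1500 ppm groups (x axis). Squares are males, circles females, colours the 3 array slides, and black bars the mean ± SD of 6 rats; for miR-101a-3p the control males on slide 1 lie at 9.94 to 10.03 and the control females on slide 2 at 9.34 to 9.43.

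The first question of the design was whether hexanal changed these miRNAs at any concentration. No member passed the threshold, a limma p below 0.05 after Benjamini-Hochberg adjustment over 283 miRNAs, at 600, 1000 or 1500 ppm, and 0% of all miRNAs passed it in each of these comparisons. At an unadjusted p below 0.05 limma counted 5, 17 and 26 of the 283 miRNAs at the 3 concentrations, with no member among them. At 1500 ppm miR-26a-5p was 0.11 ± 0.06 above control on the log2 scale (± standard error, SE, here and in the differences that follow). miR-26b-5p differed from control by -0.12 ± 0.09, miR-101a-3p by -0.17 ± 0.12 and miR-101b-3p by -0.08 ± 0.08. The adjusted p of the 4 members lay between 0.5 and 0.71 in this limma fit of all 24 arrays.

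The interval of each 1500 ppm difference in this fit, which has no slide term, covers the spread between arrays. It does not cover the uneven slides of the groups. The 95% confidence interval ran from -0.01 to 0.24 for miR-26a-5p, from -0.29 to 0.06 for miR-26b-5p, from -0.42 to 0.08 for miR-101a-3p and from -0.24 to 0.08 for miR-101b-3p. At the lower concentrations the members stayed closer to control. Their differences lay between -0.01 and 0.05 at 600 ppm (adjusted p = 0.996 for each in limma) and between -0.04 and 0.04 at 1000 ppm (adjusted p = 0.991 for each). The medians of the 4 members, 0.02, -0.01 and -0.10 from the lowest to the highest concentration, stood beside medians of 0.02, -0.01 and 0.00 over all 283 miRNAs.

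The test of any dose gave F values of 0.59 to 1.15 for the members (limma adjusted p 0.746 to 0.845), and the slope over concentration was between -0.11 and 0.07 log2 per 1000 ppm (adjusted p 0.492 to 0.646). In both, 0% of all miRNAs passed. The 6 pairs of dose groups gave 24 tests of members, with a lowest adjusted p of 0.48, so neighbouring groups in the order of levels did not differ beyond their spread for any member. With slide as a block in the fit, the 1500 ppm difference was 0.02 ± 0.05 for miR-26a-5p, -0.14 ± 0.09 for miR-26b-5p, -0.01 ± 0.06 for miR-101a-3p and -0.02 ± 0.06 for miR-101b-3p, with 0 members past the threshold.

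Males and females were compared next, since each group held both. miR-101a-3p was 0.23 ± 0.07 higher in males on the log2 scale (1.17-fold, limma adjusted p = 0.0154), and miR-26a-5p had a male minus female difference of -0.10 ± 0.04 (adjusted p = 0.0447). Thus 2 of 4 members passed, beside 43.8% of all 283 miRNAs. miR-101b-3p had a male minus female difference of 0.09 ± 0.05 (adjusted p = 0.167) and miR-26b-5p of 0.00 ± 0.06 (adjusted p = 0.958). With quantile normalization (0.13, adjusted p = 0.0309) and the total gene signal (0.19, adjusted p = 0.0436) miR-101b-3p passed. With these 2 settings miR-26a-5p did not pass (adjusted p = 0.671 and 0.912).

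Both sex calls were lost when slide entered the model. The male minus female difference became 0.12 ± 0.09 for miR-101a-3p (adjusted p = 0.507) and turned to 0.12 ± 0.07 for miR-26a-5p (adjusted p = 0.385), and 3.53% of all miRNAs passed. On slide 2, the only slide with both sexes, the 4 males and 4 females differed by 0.05 ± 0.04 for miR-101a-3p, 0.07 ± 0.04 for miR-26a-5p, 0.04 ± 0.03 for miR-101b-3p and -0.01 ± 0.06 for miR-26b-5p, and none of the 4 passed the threshold in limma, which 7.07% of miRNAs did. The males and females of slide 2 came from different dose groups. The call for miR-26a-5p also turned on single rats: it was lost in 15 of the 24 fits that left out 1 array, with the difference between -0.12 and -0.08.

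The clearest differences of the families by dose were in males. At 1500 ppm male miR-101a-3p was 0.50 ± 0.11 below control males on the log2 scale, 0.708 of their level (limma adjusted p = 0.00133), and male miR-101b-3p was 0.29 ± 0.09 below, 0.818 of their level (adjusted p = 0.0108). miR-26b-5p had a difference of -0.21 ± 0.12 (adjusted p = 0.183) and miR-26a-5p of 0.15 ± 0.06 (adjusted p = 0.0553) in the same males. The members past the threshold were 2 of 4, beside 36% of all 283 miRNAs, 15.9% lower and 20.1% higher. The miR-101a-3p call was kept under every alternative except the slide blocks. The miR-101b-3p call was also lost with the percentile over all probes (-0.11, adjusted p = 0.404), the brightest probe (-0.09, adjusted p = 0.4) and normexp (-0.20, adjusted p = 0.818). At the lower concentrations no member passed in males. At 1000 ppm, where 1.06% of all miRNAs passed, miR-101a-3p differed by -0.24 ± 0.11 (adjusted p = 0.496), and at 600 ppm, where 0% passed, by -0.14 ± 0.11 (adjusted p = 0.994). The 3 control males did not overlap the 3 males at 1500 ppm for any member, with miR-26a-5p higher and the other members lower at 1500 ppm. That was common on these arrays, where 31.1% of miRNAs were higher and 25.4% lower without overlap.

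Control males lay on slide 1 and 1500 ppm males on slide 2, so dose and slide cannot be told apart in that comparison. Only the 1000 ppm males lay on both slides, so with slide as a block the male comparison rests on 1 of them on slide 2 against 2 on slide 1. In that fit the male difference was 0.00 ± 0.13 for miR-101a-3p, with a 95% interval from -0.27 to 0.27, and -0.04 ± 0.13 for miR-101b-3p (adjusted p = 1 for both in limma). With slide as a random block the values were -0.27 ± 0.12 (adjusted p = 0.229) and -0.16 ± 0.11 (adjusted p = 0.421). With the fixed block, 0% of all miRNAs passed.

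In females no member passed the threshold at any concentration. At 1500 ppm the female differences from control were 0.16 ± 0.11 for miR-101a-3p, 0.13 ± 0.09 for miR-101b-3p, 0.07 ± 0.06 for miR-26a-5p and -0.02 ± 0.12 for miR-26b-5p, with no member past the threshold (lowest adjusted p 0.538 in limma) and 0% of all miRNAs past it. Control females lay on slide 2 and 1500 ppm females on slide 3. The test of the difference itself, the male minus the female response at 1500 ppm, gave -0.66 ± 0.15 for miR-101a-3p (adjusted p = 0.00434) and -0.42 ± 0.12 for miR-101b-3p (adjusted p = 0.0124), beside 35.3% of all miRNAs past the threshold. The F test over all doses called miR-101a-3p (F = 6.42, adjusted p = 0.0205), beside 25.1% of miRNAs, and not miR-101b-3p (F = 4.22, adjusted p = 0.0644) or miR-26a-5p (F = 4.52, adjusted p = 0.0552). The call for miR-101a-3p in that F test was lost without control female 21 (F = 5.00) and without 1500 ppm male 18 (F = 5.33).

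**Figure D2:**
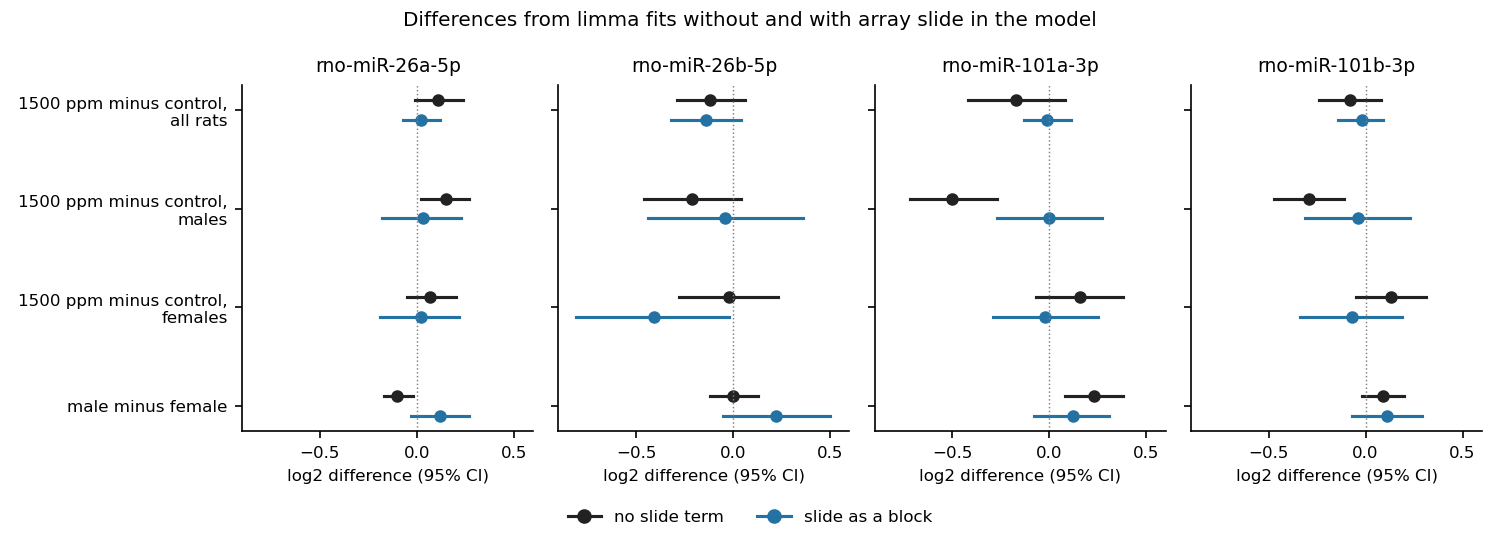
Log2 difference (x axis, points, with lines for the 95% confidence interval) of each miRNA for the contrasts named on the y axis, from limma fits without a slide term (black) and with slide as a block (blue). The male difference of miR-101a-3p at 1500 ppm is -0.50 without the slide term and 0.00 with it.

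With slide as a block, which ties the female slides through the 600 ppm females as it does the male slides through the 1000 ppm males, the male minus female response at 1500 ppm was 0.02 ± 0.18 for miR-101a-3p and 0.04 ± 0.18 for miR-101b-3p, with adjusted p of 0.972 and 0.959 in limma. Dose groups of the same sex that shared a slide gave 24 further tests of members, among the males of slide 1 and the females of slide 3, and 0 passed the threshold. Their log2 differences lay between -0.28 and 0.07, and the lowest adjusted p was 0.529. The tests on slide 1 compared the only exposed males that shared a slide with control males. There miR-101a-3p was -0.14 ± 0.05 from control at 600 ppm (adjusted p = 0.568, with 0.353% of miRNAs past the threshold) and -0.07 ± 0.05 at 1000 ppm (adjusted p = 0.978), and miR-101b-3p was -0.12 ± 0.06 and -0.05 ± 0.06.

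Slide was the grouping that separated miR-101a-3p most. Means by slide accounted for 86.1% of its sum of squares over the 24 arrays, against 29.8% for sex and 13.2% for dose group, which are overlapping shares because the groupings are not balanced. For miR-101b-3p these shares were 67%, 12.5% and 8.42%, for miR-26a-5p 60.1%, 24.8% and 16.9%, and for miR-26b-5p 20%, 0.0256% and 10.3%. From slide 1 to slide 3 the mean of miR-101a-3p was 9.91 ± 0.07, 9.44 ± 0.06 and 9.58 ± 0.11 (SD, n = 8). All 8 arrays of slide 2, at 9.34 to 9.53, were below all 8 of slide 1, at 9.78 to 10.03. miR-101b-3p was likewise at 8.05 to 8.12 on slide 2 and 8.20 to 8.45 on slide 1. Such separation downwards was seen for 13.8% of all miRNAs. Slide 1 held males of the control, 600 and 1000 ppm groups, and slide 2 mostly control females and 1500 ppm males. Sex and dose thus also differed between these slides, and their parts cannot be told apart from that of slide.

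Males on slide 2 had miR-101a-3p lower by 0.45 ± 0.05 than males on slide 1 (limma adjusted p = 5.9e-06) and miR-101b-3p lower by 0.24 ± 0.04 (adjusted p = 0.00061). The miR-101b-3p call was lost with the percentile over all probes (-0.08, adjusted p = 0.207) and with the brightest probe (-0.06, adjusted p = 0.175). miR-26a-5p passed with a difference of 0.16 ± 0.04 (adjusted p = 0.00276), but its direction turned with the scaling: quantile normalization gave -0.10, past the threshold the other way (adjusted p = 0.00317), the total gene signal 0.00 and the series table -0.36. miR-26b-5p differed by -0.14 ± 0.06 (adjusted p = 0.0625), and this too depended on the processing. It passed with quantile normalization (-0.24, adjusted p = 0.000716), the total gene signal (-0.33, adjusted p = 0.000905) and the series table (-0.68, adjusted p = 0.00374). With the percentile over all probes it was at 0.01. It also passed when 600 ppm male 7, 1000 ppm male 11 or 1500 ppm male 17 was left out. With the scaling used here and all arrays, 3 of 4 members passed the threshold, beside 51.2% of all miRNAs. Dose differed too, since 3 of the 4 slide 2 males were at 1500 ppm and the 8 slide 1 males were at lower doses or control. Females of slide 3 against slide 2 gave 0.17 ± 0.06 for miR-101a-3p, 0.16 ± 0.06 for miR-101b-3p, 0.08 ± 0.05 for miR-26a-5p and 0.12 ± 0.10 for miR-26b-5p, with no member past the threshold and 4.95% of all miRNAs past it. Dose differed here as well, since slide 2 held all control females and a single 600 ppm female, and slide 3 exposed females alone.

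**Figure D3:**
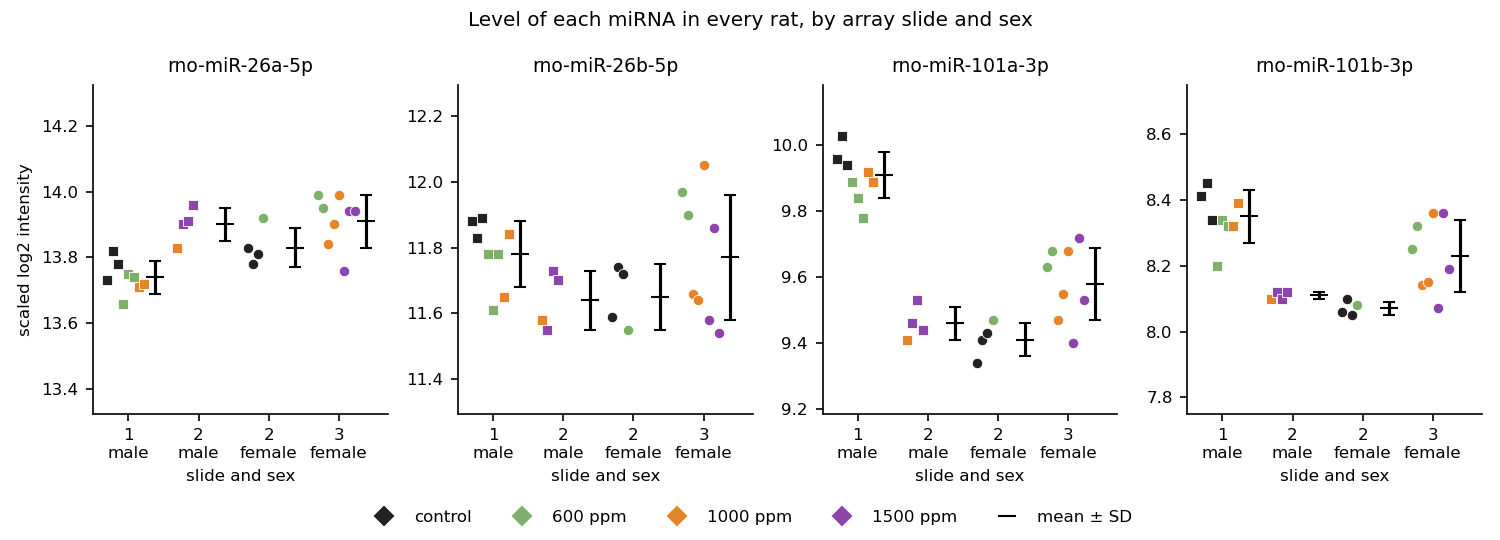
Scaled log2 intensity of each miRNA (y axis, each panel spanning 1 log2 unit) in every rat, arranged by array slide and sex (x axis). Colours are dose groups and black bars the mean ± SD of 8, 4, 4 and 8 rats; on slide 2 the control females and 1500 ppm males of miR-101a-3p lie together at 9.34 to 9.53.

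Cell type markers were read on the same slides, and only the red blood cell list moved as a whole. Between the male slides 145 of 283 miRNAs passed the threshold, and between the female slides 14 of 283. Both red blood cell miRNAs on the array, of 3 listed, differed between the slides in both sexes: from slide 1 to slide 2 males fell by 1.11 ± 0.18 for miR-144-3p and by 0.56 ± 0.16 for miR-451-5p (limma adjusted p = 0.000301 and 0.0116), and from slide 2 to slide 3 females rose by 0.61 ± 0.15 and 0.65 ± 0.16 (adjusted p = 0.0316 and 0.0299). The log2 of their summed intensities ranged from 11.02 to 11.62, 10.03 to 10.86 and 10.46 to 11.38 on slides 1, 2 and 3. A brighter miRNA weighs more in such a sum. Dose also differed between the slides of each sex. The endothelial and smooth muscle pairs were split. Between the male slides miR-126a-5p fell by 0.99 ± 0.04 (adjusted p = 4.03e-09) while its partner arm miR-126a-3p had a difference of 0.00 ± 0.06 (adjusted p = 0.948), and miR-145-5p fell by 0.60 ± 0.05 (adjusted p = 1.21e-06) while miR-143-3p had a difference of -0.06 ± 0.05 (adjusted p = 0.316).

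Over slides 1, 2 and 3 the endothelial sums covered 13.82 to 14.08, 13.58 to 13.89 and 13.54 to 13.88, and the smooth muscle and fibroblast sums 12.96 to 13.16, 12.69 to 12.94 and 12.74 to 13.05. The 5 epithelial miRNAs covered 11.91 to 12.01, 11.87 to 12.13 and 11.88 to 12.15, and the 4 leukocyte miRNAs 11.65 to 12.00, 11.64 to 12.29 and 11.90 to 12.21. Of these 9, miR-429, miR-141-3p and miR-150-5p rose between the male slides and miR-142-5p fell, by 0.37 ± 0.09 (adjusted p = 0.00401). That was beside 145 of 283 miRNAs past the threshold between the male slides. The 3 ciliated cell miRNAs covered 10.28 to 11.26, 10.51 to 11.40 and 11.04 to 11.79, and the 3 tested striated muscle miRNAs 7.41 to 9.16, 7.00 to 9.61 and 7.22 to 10.38, with none of these 6 past the threshold between the slides of either sex. In bulk tissue fewer cells of a type and less RNA per cell cannot be told apart, and the part of these cell types in the miR-101 values was not tested.

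The 2 probes of a miRNA gave a further view, because they are listed for the same RNA on the same array. The probes of miR-101a-3p moved together, with 1500 ppm minus control differences in males of -0.52 and -0.48. The probes of miR-101b-3p did not. A_26_P00001156 gave -0.49 in the 1500 ppm males and A_26_P00002566 gave -0.09. From slide 1 to slide 2 the mean of A_26_P00001156 went from 8.14 ± 0.11 to 7.71 ± 0.03, while A_26_P00002566 went from 8.55 ± 0.06 to 8.47 ± 0.03 (SD, n = 8).

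Over the 24 arrays A_26_P00001156 correlated with the level of miR-101a-3p at r = 0.955 and A_26_P00002566 at r = 0.515. After slide means were removed the values were 0.746 and 0.769. The array files used here give no probe sequences, so whether either probe also reads miR-101a-3p, which differs by the A16G substitution shown above, was not tested.

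The probes of miR-26a-5p disagreed in the same way. In 1500 ppm males A_26_P00001225 differed from control males by 0.01 and A_26_P00002571 by 0.29. From slide 1 to slide 2 the first stayed at 13.55 ± 0.04 and 13.54 ± 0.08 and the second went from 13.92 ± 0.05 to 14.20 ± 0.05. The probes correlated with each other at r = 0.46 over the 24 arrays, and at 0.831 once slide means were removed. The probes of miR-26b-5p correlated at 0.935 and 0.993. The direction of the miR-26a-5p difference in 1500 ppm males also depended on the scaling: 0.15 became -0.11 with quantile normalization, -0.02 with the total gene signal and -0.54 in the unnormalized series table, in which the median of all miRNAs was itself at -0.71.

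**Figure D4:**
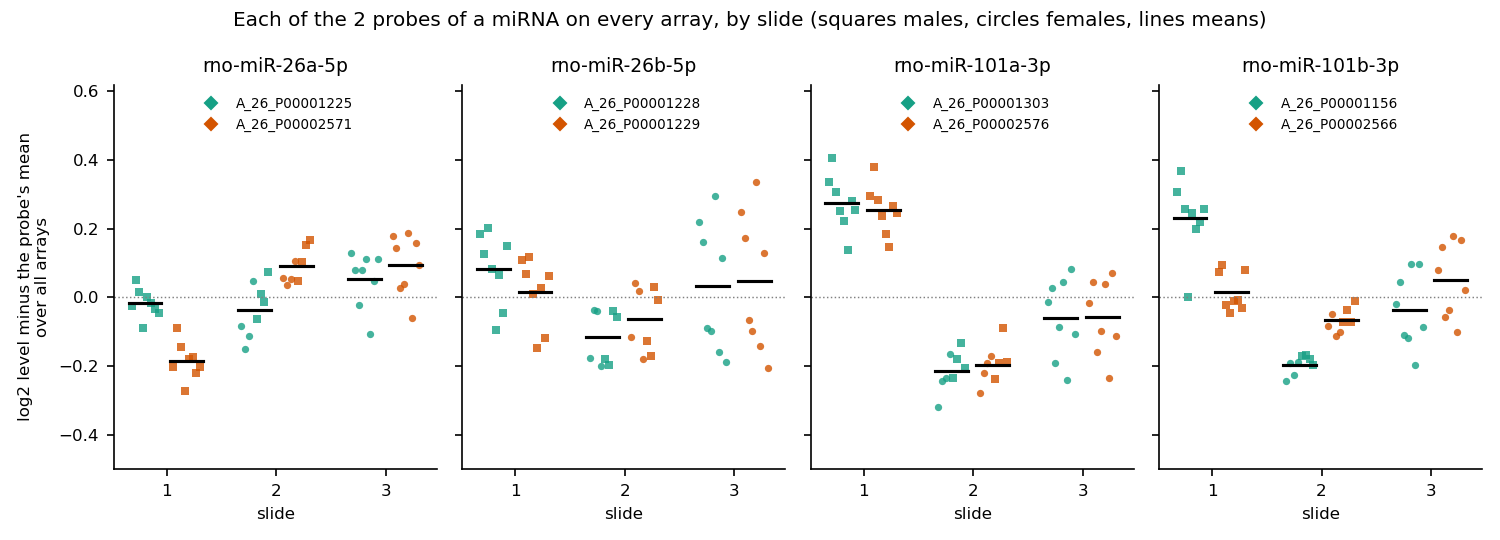
Log2 level of each of the 2 probes per miRNA on every array, minus that probe's mean over the 24 arrays (y axis), by slide (x axis). Squares are males, circles females and black lines slide means; the probes of miR-101a-3p shift together, while for miR-26a-5p (A_26_P00002571) and miR-101b-3p (A_26_P00001156) 1 probe shifts more between slides 1 and 2 than the other.

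The balance within a family does not depend on the factor by which an array was scaled. The log2 ratio of miR-26a-5p to miR-26b-5p was 2.01 ± 0.14 in control rats, 2.07 ± 0.17 at 600 ppm, 2.10 ± 0.16 at 1000 ppm and 2.24 ± 0.12 at 1500 ppm (SD, n = 6). The rise of 0.23 at 1500 ppm had an exact two-sided permutation p of 0.0195, which became 0.117 after Benjamini-Hochberg adjustment over 6 tests, so it did not pass. It crossed the threshold, at 0.27, when control female 21 was left out. By slide the ratio was 1.95 ± 0.10, 2.22 ± 0.11 and 2.14 ± 0.15 (SD, n = 8).

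The log2 ratio of miR-101a-3p to miR-101b-3p was 1.45 ± 0.14 in control rats and 1.35 ± 0.04 at 1500 ppm (exact permutation p = 0.16, adjusted 0.48, n = 6). Across the slides in order it was 1.56 ± 0.07, 1.34 ± 0.05 and 1.35 ± 0.03.

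The opposite arm of each hairpin, which is usually degraded, was little seen. miR-26a-3p and miR-101b-5p were above background on 0 of the 24 arrays. miR-26b-3p was above it on 13 arrays and miR-101a-5p on 16, so their differences are close to the background. miR-101a-5p was 0.53 ± 0.15 lower in 1500 ppm males than in control males on the log2 scale (limma adjusted p = 0.00721) and 0.47 ± 0.08 lower in slide 2 than in slide 1 males (adjusted p = 0.000422). The miR-101a-5p values rest on probe A_26_P00002093 alone, whose median brightness was 1.56 times its local background. The other probes of miR-101a-5p were above background on too few arrays to be kept. miR-101a-3p was lower in the same contrasts, which 102 and 145 of 283 miRNAs passed. miR-26b-3p fell by 0.20 ± 0.06 in the 1500 ppm males (adjusted p = 0.0172), and slide 2 minus slide 1 in males was -0.17 ± 0.06 (adjusted p = 0.0189). Its kept probes disagreed in the 1500 ppm males. A_26_P00002037, above background on 13 arrays, gave -0.38, and A_26_P00002036, above it on 7 arrays, gave -0.03.

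miR-144-3p, with the seed closest to that of miR-101, was above background on all arrays. Its difference from control was 0.29 ± 0.33, 0.24 ± 0.33 and -0.27 ± 0.33 from the lowest to the highest concentration, none past the threshold in limma. In 1500 ppm males it was 1.20 ± 0.27 lower than in control males (adjusted p = 0.00177), where 36% of all miRNAs passed, and its female difference was 0.67 ± 0.27 (adjusted p = 0.335). These contrasts follow the slides, between which it also differed as given above, and with slide as a block 0% of miRNAs passed in 1500 ppm males.

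Other miRNAs known to repress EZH2 were taken as a list of 13, made of let-7 members, miR-98, miR-214 and 4 others. Of these, 9 could be tested, and miR-138-5p, miR-124-3p, miR-137-3p and miR-217-5p were not above background on enough arrays. At 600, 1000 and 1500 ppm 0 of the 9 passed the threshold, with list medians of 0.05, 0.03 and 0.20 beside 0.02, -0.01 and 0.00 over all miRNAs. At 1500 ppm the members with the smallest p were let-7a-5p, at 0.15 ± 0.06, and let-7e-5p, at 0.32 ± 0.14 (adjusted p = 0.498 for both in limma).

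In males at 1500 ppm most of the list moved the other way from miR-101. Here 7 of the 9 rose, beside 20.1% of all miRNAs, and 1 fell, where 102 of 283 miRNAs passed in either direction. Those that rose were let-7 members except for miR-214-3p, and whether a let-7 probe reads more than 1 of them was not tested. let-7b-5p rose by 0.71 ± 0.12 (limma adjusted p = 0.000491), let-7e-5p by 0.68 ± 0.11 and miR-214-3p by 0.65 ± 0.19. let-7i-5p rose by 0.49 ± 0.09, let-7c-5p by 0.45 ± 0.09, let-7d-5p by 0.43 ± 0.09 and let-7a-5p by 0.25 ± 0.08. miR-98-5p, which carries the let-7 seed, fell by 0.56 ± 0.12 (adjusted p = 0.00122), and let-7f-5p had a difference of -0.09 ± 0.07. In females 0 of the 9 passed, with a list median of -0.04. In males of slide 2 against slide 1 the counts were again 7 up and 1 down, where 145 of 283 miRNAs passed in either direction. With slide as a block 0 of the 9 passed at 1500 ppm in males, females or both.

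**Figure D5:**
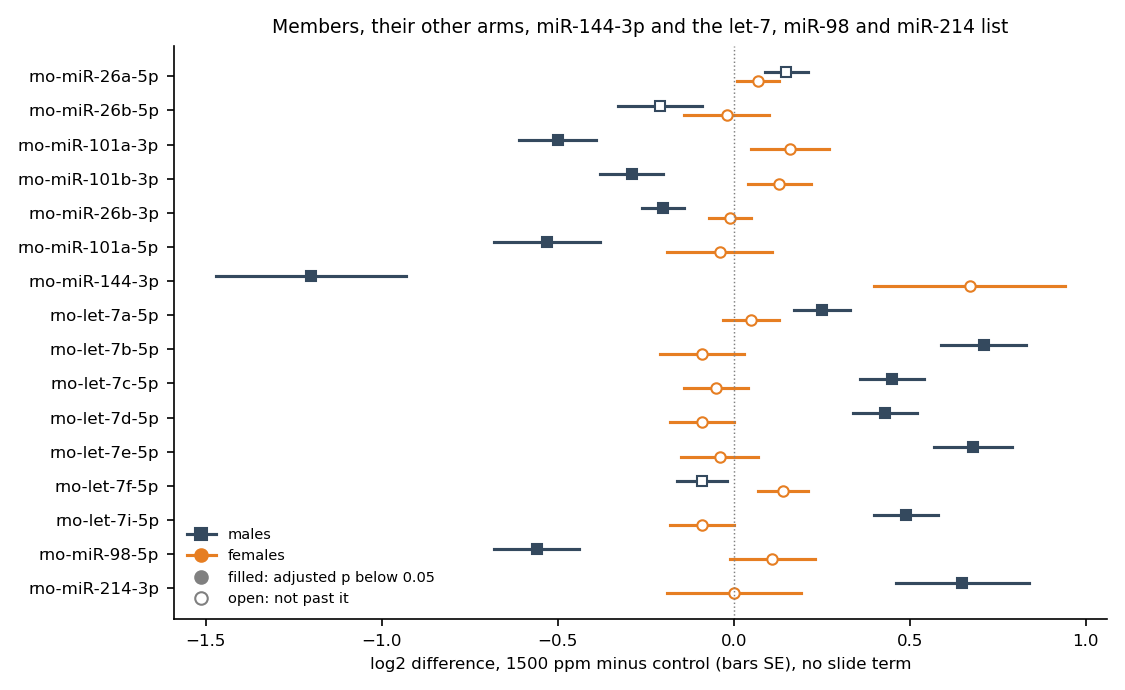
Log2 difference between 1500 ppm and control rats (x axis, bars are SE, no slide term) in males (squares) and females (circles) for the 4 members, the 2 tested opposite arms, miR-144-3p and the 9 tested miRNAs of the EZH2 list. Filled symbols had a limma adjusted p below 0.05; in males miR-101a-3p is at -0.50 and let-7b-5p at 0.71, and no female symbol is filled.

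The miRNAs with the pattern most like each member were ranked among the 210 other miRNAs above background on all arrays, by Pearson r over the 24 arrays after slide means were removed, with the r of the levels as they were beside it. For miR-26a-5p these were miR-30c-2-3p (0.771 and 0.267), miR-30a-5p (0.768 and 0.711) and miR-30a-3p (0.761 and 0.774). For miR-26b-5p they were miR-7a-1-3p (0.801 and 0.822), miR-30e-5p (0.798 and 0.771) and miR-16-5p (0.796 and 0.295). For miR-101a-3p they were miR-29a-3p (0.845 and -0.506), miR-101b-3p (0.79 and 0.903) and miR-29c-3p (0.763 and 0.858), and for miR-101b-3p they were miR-101a-3p, miR-29a-3p (0.716 and -0.293) and miR-29c-3p (0.713 and 0.879). All values share the scaling of each array. The sign of the miR-29a-3p correlation turned with the removal of slide means, so within slides it rose and fell with the miR-101 pair and between slides it went the other way. miR-26a-5p and miR-26b-5p correlated with each other at 0.424 within slides and 0.127 as they were. Both correlated more with the miR-101 pair within slides. For miR-101a-3p and miR-101b-3p the values were 0.699 and 0.696 with miR-26a-5p (-0.44 and -0.173 as they were). With miR-26b-5p they were 0.643 and 0.639 (0.54 and 0.664 as they were). What r is usual among these miRNAs was not measured.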

How the data were processed

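Lung RNA of 24 rats was labelled with Cy3 and hybridised to 1 array each. The authors deposited Agilent Feature Extraction 11.5.1.1 scanner output, in which the processed spot intensity is brightness corrected for background but not normalized between arrays. The series table, also deposited, held 17256 intensities, of which 7125 equalled the total gene signal and 10131 were set to 1. The methods of the study do not describe miRNA arrays, and the procedure behind those values is not given in the sources used here. Groups, sex and animal numbers came from the labels, and slides from the file headers.

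Control and outlier-flagged spots were left out. Scaling brought the 75th percentile of every array, taken over 394 probes that cleared background on each of the 24 arrays, to a common value of 865. Values under 11.3 were set to 11.3, log2 was taken, spots were averaged per probe, and probes above background on at least 6 arrays were kept, which left 555 of 1730 probes for 283 of 719 miRNAs. Kept probes of 1 miRNA were averaged. The scaling makes every value relative to the array's other miRNAs, and the floor shrinks differences of dim ones.

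limma 3.58.1 (lmFit and eBayes, two-sided, R 4.3.3 with version 1.17.8 of the data.table package) gave the tests, adjusted by Benjamini-Hochberg over the 283 miRNAs with a threshold of 0.05. Dose comparisons came from 1 fit of all 24 arrays with 20 residual degrees of freedom, after the unpaired comparison in the methods of the study, with the sexes pooled. Sex was tested with dose group as a factor, and dose within sex from a fit with 1 mean for each of the 8 combinations of dose and sex. Slide contrasts were fitted within each sex. Ratios within a family were compared by exact permutation of rats. In intensities simulated for the comparison of 1500 ppm with control over the 283 miRNAs, 25 of 30 changes of 0.5 log2 and 27 of 30 of 1 log2 were recovered, and 3 of 223 unchanged miRNAs were called. These shares hold for many miRNAs changed at once and do not give the recovery of a lone changed member.

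The named miRNAs were the 4 members, their opposite arms, miR-144-3p, the EZH2 list (each miRNA past the threshold or, failing any, the 2 lowest in p) and the 3 most alike miRNAs per member. Members and lists were chosen with earlier results of these data known. The alternatives were other scalings and sources of the intensity (percentile over all probes, quantile, total gene signal, series table), background correction (normexp of the median brightness, offset 50), filters on dim probes, a floor 4 times lower, the brightest probe, slide as a block or random block, eBayes with trend and robust, a sex covariate, fits of 2 groups at a time, the unpaired t-test of the methods, and leaving out each array. The number of arrays limits the precision. Nothing beyond the animal numbers says how samples were taken, so the p-values measure the spread between these rats on these slides.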

Additional observations from a re-analysis of the deposited data

Results flagged for a closer look

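miR-26a-5p at 1500 ppm had 1 rat apart from the other five: female 36 was at 13.76 on the log2 scale and the others averaged 13.93 ± 0.03 (SD). Its gap to the nearest rat was 0.692 of the range of the group. The log2 ratio of miR-101a-3p to miR-101b-3p at 1500 ppm had male 17 apart, at 1.43 against 1.34 ± 0.02 in the others, with a gap of 0.636 of the range. These were 2 of 24 groups examined in this way, and chance gives about 1.2.

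The response to dose differed between males and females for miR-101a-3p, by the F test over the 3 concentrations (F = 6.42, limma adjusted p = 0.0205) and at 1500 ppm (male minus female response -0.657, adjusted p = 0.00434). For miR-101b-3p it differed at 1500 ppm (-0.424, adjusted p = 0.0124). Sex, dose and slide overlap in these arrays, and with slide as a block neither difference passed the threshold. Whether the sexes respond differently cannot be told apart from the slides.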

How the results depend on the processing

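No paired analysis was possible because the animal numbers in the labels are unique to each group. No alternative called a member at 600, 1000 or 1500 ppm or in the slope over concentration. The methods' t-test left 0 miRNAs after Benjamini-Hochberg adjustment at each concentration, against 5, 21 and 28 before it, 1 member among them, miR-26a-5p at 1500 ppm. The cause of a change was not tested unless a sentence names it.

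Counts of members past the threshold depended on slide, on the source of the values and on the background correction. For male minus female the count went from 2 to 0 with either slide block, the series table or normexp, and to 1 with the percentile over all probes or no filter. For 1500 ppm males it went from 2 to 0 with either block, 1 with normexp and 4 with the series table. It stayed at 2 with the percentile over all probes and the brightest probe, but with miR-26a-5p (0.33 and 0.29, adjusted p = 0.0083 and 0.00358) in place of miR-101b-3p. In the same males miR-26b-5p was also called with quantile normalization (-0.30, limma adjusted p = 0.0146) and the total gene signal (-0.40, adjusted p = 0.0265). The strict filter (0.15, adjusted p = 0.0482) and the other eBayes options (0.15, adjusted p = 0.0305) also called miR-26a-5p. For the male minus female response at 1500 ppm the count of members went from 2 to 0 with either block, normexp or the percentile over all probes, and 4 with the series table. For the same response at any dose it went from 1 to 0 with either block, normexp or no filter, and to 2 with the strict filter, the brightest probe, the series table or the other eBayes options. The F test over all doses in males called miR-101a-3p (F = 7.76, limma adjusted p = 0.00783) and miR-26a-5p (F = 4.68, adjusted p = 0.0405). The share of all miRNAs past the threshold in that test is not given here. Its count of members went from 2 to 0 with either block or normexp, and to 1 with the percentile over all probes, quantile normalization or the lower floor. For females of slide 3 against slide 2 it went from 0 to 1 with the total gene signal and 4 with the series table. Leaving out 1 array gave 1 to 2 members for male minus female, 0 to 3 for the response at any dose (0 without female 21 or male 18, 3 without male 13), 1 to 3 for any dose in males and 0 to 1 for the female slides (1 without female 36).

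Counts over all miRNAs moved as follows. Male minus female went from 124 to 10 with slide as a block, 0 as a random block, 77 with no filter (719 miRNAs tested), 62 with the series table and 8 with normexp. 1500 ppm males went from 102 to 0 with slide as a block, 2 as a random block, 216 with the series table and 16 with normexp. The male minus female response at 1500 ppm went from 100 to 0 with either block or normexp, 66 with the total gene signal and 164 with the series table, and at any dose from 71 to 0 with either block or normexp and 18 with the total gene signal. Females of slide 3 against slide 2 went from 14 to 4 with no filter, 22 with the strict filter, 27 with the brightest probe, 87 with the series table and 0 with normexp. The 1500 ppm count went from 0 to 1 with the series table, and the slope count from 0 to 1 with the series table and 3 with sex as a covariate. Without 1 array the counts were 4 to 24 for the female slides (4 without female 23 or 26), 34 to 102 for the response at any dose (34 without male 18, 45 without female 36) and 0 to 2 for the slope. The scalings moved the median of all miRNAs in 1500 ppm males from 0.04 to 0.19 with the percentile over all probes, -0.19 with the total gene signal, -0.71 in the series table and 0.22 with normexp.

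Direction turned mostly for small uncalled values. The exceptions among values past the threshold were miR-26a-5p between the male slides and in the response with quantile normalization (adjusted p = 0.00317 and 0.0404), miR-26a-5p in 1500 ppm males and in the response with the series table (adjusted p = 0.011 and 0.0159), and called values that turned and lost the call with slide as a block or, for miR-26a-5p between the sexes and between the male slides, with the total gene signal and the series table. With slide as a block, miR-101a-3p was -0.02 at 600 ppm, -0.02 in 1500 ppm females and 0.02 in the male minus female response, miR-101b-3p -0.04 at 600 ppm, -0.03 at 1000 ppm, -0.07 in 1500 ppm females and 0.04 in that response, miR-26a-5p 0.00 at 1000 ppm and 0.12 in male minus female, and miR-26b-5p 0.37 in the response. With the random block these were -0.02 (miR-101a-3p, 600 ppm), -0.03 and -0.02 (miR-101b-3p, 600 and 1000 ppm), 0.01 (miR-26a-5p, male minus female) and 0.12 (miR-26b-5p, response). Quantile normalization gave miR-101a-3p -0.03 and miR-101b-3p -0.01 at 600 ppm, miR-101b-3p -0.01 at 1000 ppm, and miR-26a-5p -0.02 at 1500 ppm, -0.02 for the slope, -0.17 for the response, -0.11 in 1500 ppm males, -0.05 for slide 2 male minus female and -0.10 for males of slide 2 against slide 1. The total gene signal gave miR-26a-5p 0.01 in male minus female, -0.13 for the response, -0.02 in 1500 ppm males and 0.00 between the male slides, and miR-26b-5p 0.02 in 1500 ppm females and 0.02 for slide 2 male minus female. The series table gave -0.02, -0.03 and -0.04 at 600 ppm for miR-26a-5p, miR-101a-3p and miR-101b-3p, 0.03 and 0.04 at 1000 ppm for miR-26b-5p and miR-101a-3p, and for miR-26a-5p -0.15 at 1500 ppm, -0.07 for the slope, 0.10 in male minus female, -0.78 for the response, -0.54 in 1500 ppm males and -0.36 between the male slides, with miR-26b-5p at 0.15 in 1500 ppm females and 0.01 for slide 2 male minus female. The brightest probe gave miR-101b-3p 0.01 at 1500 ppm, 0.01 for the slope and -0.01 in male minus female, and miR-26b-5p -0.02 in male minus female. Normexp gave miR-101b-3p -0.03 at 1000 ppm, -0.01 in male minus female, -0.21 on slide 2 and -0.15 between the female slides, and miR-26b-5p 0.01 on slide 2. The percentile over all probes gave miR-26b-5p 0.06 for the response, 0.12 on slide 2 and 0.01 between the male slides. The miR-101 ratio at 600 ppm was 0.00 with the brightest probe, -0.12 with normexp and -0.02 with quantile normalization.

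Without 1 array the sign turned for 10 uncalled values, which then ranged from -0.04 to 0.10 and -0.10 to 0.04 for miR-101a-3p at 600 and 1000 ppm, -0.02 to 0.06 and -0.03 to 0.05 for miR-101b-3p, and for miR-26b-5p from -0.05 to 0.03 at 600 ppm, -0.12 to 0.04 in 1500 ppm females, -0.02 to 0.04 in male minus female and -0.04 to 0.02 on slide 2. The ratios at 600 ppm ranged from 0.00 to 0.10 for miR-26 and -0.03 to 0.05 for miR-101, and the miR-26 ratio at 1500 ppm from 0.19 to 0.27.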
